A study of Mus musculus with 6 samples.

Results

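The genes described here are 10 G protein-coupled receptors, taken by symbol from a table of 55335 genes. They are Fpr1, Fpr2, C5ar1, C5ar2, Ltb4r1, Ptafr, Gpr84, Ffar2, Hcar2 and Gpr27. Myeloid cells sense chemoattractants or metabolites through all of them but the orphan Gpr27. All 10 were found in the table and all 10 passed the filter on low counts, as did 14849 genes in all. They were measured by bulk RNA sequencing of CD11b+ cells that were sorted by flow cytometry from the spleens of mice labelled WT. One group had a myocardial infarction with renal denervation, the removal of the nerves that serve the kidney (MI+RDN, n = 3), and the other had the infarction without it (MI, n = 3). Both groups therefore carry the infarct, and no uninjured or sham-operated group was analysed here. The labels give neither the time after infarction, the age of the mice, nor whether a replicate was 1 animal or a pool, so p-values measure the spread between these 6 libraries. Genotype, tissue and sort did not differ between the groups per the labels.

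Chemoattractant receptors let neutrophils and monocytes find infected or injured tissue. Most couple to inhibitory Gi proteins, whose beta-gamma subunits start the lipid kinase and Rac signalling that polarises and moves the cell, and arrestins then switch the receptor off. Formyl peptides from bacteria and mitochondria, the complement fragment C5a, leukotriene B4 and platelet-activating factor are the classical ligands, while short-chain and medium-chain fatty acids, niacin and ketone bodies act on the metabolite receptors of the same cells.

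Among the receptors are 2 pairs of neighbouring relatives. Fpr1 and Fpr2 lie head to head on opposite strands of chromosome 17, and C5ar1 and C5ar2 lie next to each other on the same strand of chromosome 7. Their promoters are shown because the members of each pair are set against each other in the values that follow. Each run covers 250 bases before and 50 bases after a RefSeq transcription start in GRCm38.p6, written 5′ to 3′ on the gene's own strand, and capitals mark matches to the motifs searched. The windows are chr17:17883890-17884189 (minus strand) for Fpr1, chr17:17887574-17887873 (plus strand) for Fpr2, chr7:16259289-16259588 (minus strand) for C5ar1 and chr7:16244105-16244404 (minus strand) for the upstream start of C5ar2.
Fpr1: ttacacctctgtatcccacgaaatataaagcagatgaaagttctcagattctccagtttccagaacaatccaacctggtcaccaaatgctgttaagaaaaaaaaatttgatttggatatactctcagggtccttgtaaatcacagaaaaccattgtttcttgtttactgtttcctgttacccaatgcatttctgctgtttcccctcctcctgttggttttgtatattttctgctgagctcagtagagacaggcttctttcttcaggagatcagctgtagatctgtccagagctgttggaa
Fpr2: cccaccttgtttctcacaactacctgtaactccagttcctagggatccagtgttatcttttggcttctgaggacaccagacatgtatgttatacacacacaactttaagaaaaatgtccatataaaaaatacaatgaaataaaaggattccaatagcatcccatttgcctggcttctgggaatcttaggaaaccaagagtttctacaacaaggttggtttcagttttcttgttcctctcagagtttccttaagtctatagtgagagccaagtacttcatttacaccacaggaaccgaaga
C5ar1: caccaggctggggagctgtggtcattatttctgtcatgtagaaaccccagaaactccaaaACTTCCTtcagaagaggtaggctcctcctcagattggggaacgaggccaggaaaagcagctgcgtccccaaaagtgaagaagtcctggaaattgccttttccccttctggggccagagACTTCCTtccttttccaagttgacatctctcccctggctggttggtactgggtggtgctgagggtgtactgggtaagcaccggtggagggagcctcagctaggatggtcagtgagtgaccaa
C5ar2: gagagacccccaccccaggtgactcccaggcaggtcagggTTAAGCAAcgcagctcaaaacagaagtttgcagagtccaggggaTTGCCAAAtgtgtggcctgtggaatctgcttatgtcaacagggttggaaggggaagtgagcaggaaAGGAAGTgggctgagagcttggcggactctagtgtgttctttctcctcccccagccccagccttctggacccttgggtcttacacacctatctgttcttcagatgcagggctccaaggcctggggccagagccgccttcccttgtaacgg
The motifs were AGGAAGT (ETS-type, the family of the myeloid factor PU.1), TTGCNNAA (C/EBP-type) and TGANTCA (AP-1), each on both strands. The C5ar1 window held the ETS-type letters at positions 61 and 179, counted from 1 at the 5′ end. The C5ar2 window shown held them at position 151 and held the C/EBP-type letters at positions 41 and 85. The window of another C5ar2 start, chr7:16242282-16242581 (minus strand), held none of the motifs. Neither formyl peptide receptor window held any of the 3 motifs. Among 32851 promoter windows of the same length, 9.35% held the ETS-type letters, 10.8% the C/EBP-type letters and 7.81% the AP-1 letters. Promoters were found for 8 of the 10 genes, and those of Hcar2 and Gpr27 were not among them. The Ltb4r1 and Gpr84 windows each held the ETS-type letters, at positions 251 and 188, and the Ptafr window held none of the motifs. Ffar2 had 4 RefSeq starts, each with the C/EBP-type letters in its window, although 2 of these windows overlap and share 1 match. Of the Ffar2 windows 1 also held the ETS-type letters and 1 the AP-1 letters, the only AP-1 match in the windows of these 8 genes. A match describes letters in a window and says nothing of binding.

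The comparison asks what renal denervation does to the receptors of splenic myeloid cells after an infarct. Gpr27 rose in MI+RDN and was the only receptor past the threshold of 0.05 by edgeR's quasi-likelihood test with Benjamini-Hochberg adjustment over all genes tested, where 1.01% of genes passed in either direction and 0.296% passed as higher. The log2 fold change of MI+RDN over MI was positive for 9 of the 10 receptors, as for 51.0% of all genes tested, with a median of 0.72 against 0.0080 over all genes tested. In 6 receptors (Fpr1, Fpr2, C5ar1, Ltb4r1, Gpr84 and Gpr27) every MI+RDN library lay above every MI library, as in 12.4% of all genes tested. The same 6 had an unadjusted p under 0.05 as higher, as did 9.83% of all genes tested. The receptors and the gene lists below were chosen with earlier results of these data known. Such counts and medians are therefore no separate support for a difference between the groups. Ffar2 was the only receptor with a negative fold change. In bulk samples fewer cells of a type and less RNA per cell cannot be told apart.

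**Figure D1:**
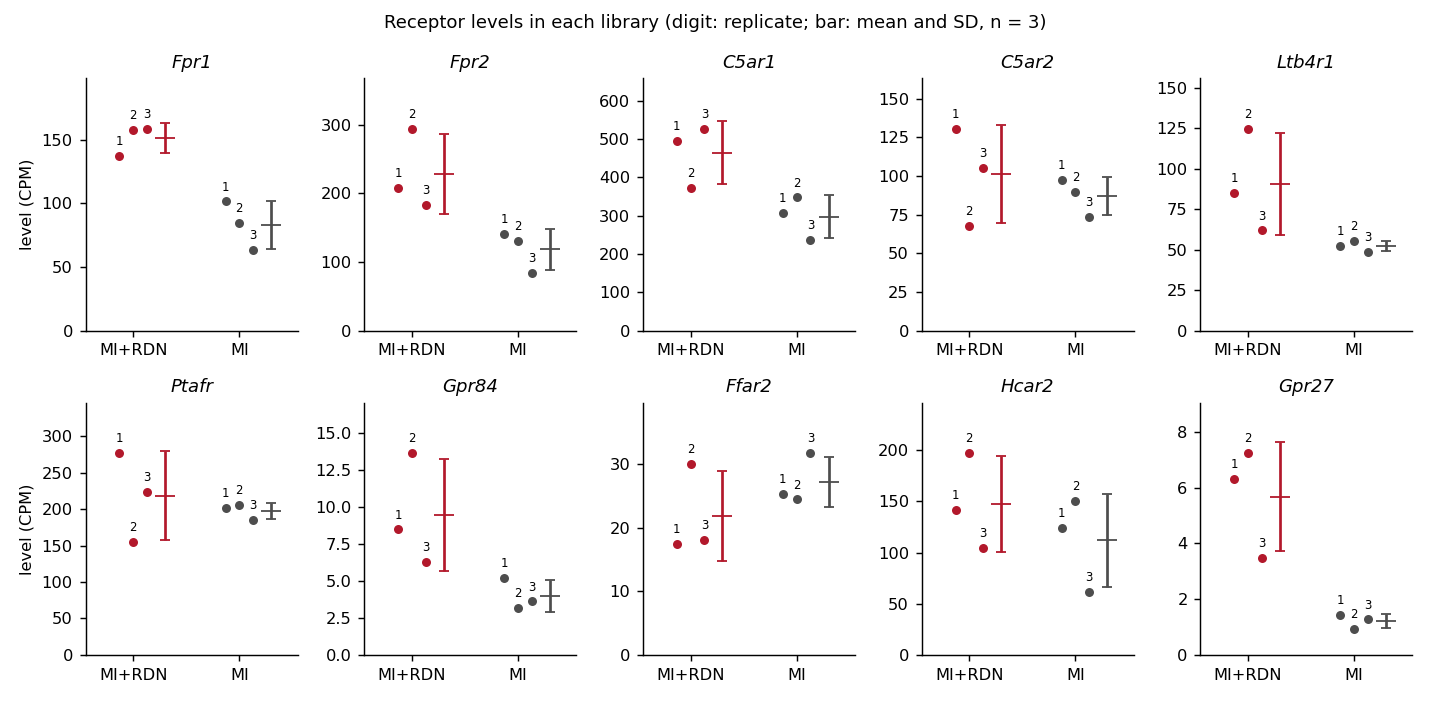
Level of each receptor in CPM (counts scaled by library size, y axis from 0, scaled per gene) in the 3 MI+RDN and 3 MI libraries. Digits give the replicate, and the bars the mean and SD. In Fpr1, Fpr2, C5ar1, Ltb4r1, Gpr84 and Gpr27 all MI+RDN points lie above all MI points, and in the other 4 genes the groups overlap.

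Fpr1 (ENSMUSG00000045551) encodes the high-affinity receptor for bacterial formyl peptides on neutrophils. Its level was 137, 158 and 159 CPM in MI+RDN replicates 1 to 3, against 102, 84.3 and 63.6 CPM in MI replicates 1 to 3. The groups did not overlap, and the MI+RDN libraries lay close together, at 151 ± 12.03 CPM against 83.1 ± 19.0 CPM in MI (SD, n = 3 each). The log2 fold change was 0.86 with a standard error of 0.16, and it missed the threshold (edgeR, Benjamini-Hochberg adjusted p = 0.0548), with the gene ranked 218 by p among all genes tested. It passed narrowly by edgeR without scaling factors, with a filter at a mean of 5 CPM, and once genes of antigen receptors, haemoglobins and mitochondria were removed (adjusted p = 0.0457, 0.0483 and 0.0423). Fpr2 (ENSMUSG00000052270), which also recognises endogenous ligands such as annexin A1 and serum amyloid A, stood at 207, 294 and 184 CPM in MI+RDN, against 141, 130.4 and 84.4 CPM in MI. MI+RDN replicate 2 was the highest of the 6 libraries and MI replicate 3 the lowest. Its log2 fold change of 0.95 (standard error 0.23) was close to that of Fpr1 and did not pass either (edgeR, Benjamini-Hochberg adjusted p = 0.0849). The log2 ratio of Fpr2 to Fpr1 averaged 0.57 in MI+RDN and 0.50 in MI, a difference of 0.064 (two-sided exact permutation p = 0.80 and, adjusted over the 4 ratios tested, 0.80).

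The annotation places an exon of Fpr3 over Fpr2 on the same strand, so reads shared by these relatives are uncertain. Fpr3 averaged 0.024 CPM in MI+RDN and 0.014 CPM in MI, and Fpr-rs3, Fpr-rs4, Fpr-rs6 and Fpr-rs7, the other members of the mouse family in the list, had 0 counts in all 6 libraries. Exons of Gm26473 overlap C5ar2 on the same strand, and exons of Gm49482 overlap Gpr84 on the opposite strand. Reads shared there are uncertain too, since the read counter and its strand setting are not given.

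C5ar1 (ENSMUSG00000049130), the Gi-coupled receptor for C5a, stood at 495, 372 and 527 CPM in MI+RDN, against 308, 348 and 237 CPM in MI. The groups did not overlap, although MI+RDN replicate 2 lay only just above MI replicate 2. The log2 fold change was 0.64 (standard error 0.18), short of the threshold (adjusted p = 0.112 by edgeR with Benjamini-Hochberg). C5ar2 (ENSMUSG00000074361) binds C5a but does not couple to G proteins. It stood at 131, 67.6 and 105 CPM in MI+RDN, against 97.6, 89.7 and 73.5 CPM in MI. MI+RDN held both the highest and the lowest of the 6 libraries, in replicates 1 and 2, and the log2 fold change of 0.22 (standard error 0.23) was short of the threshold (adjusted p = 0.627 by edgeR). The log2 ratio of C5ar1 to C5ar2 was 1.92, 2.46 and 2.32 in MI+RDN, against 1.66, 1.95 and 1.69 in MI. The ratio thus averaged 0.47 more in MI+RDN with overlapping groups (two-sided exact permutation p = 0.20, adjusted p = 0.267), a design whose smallest possible p is 0.10.

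Ltb4r1 (ENSMUSG00000046908) encodes BLT1, the high-affinity leukotriene B4 receptor that sustains neutrophil swarming. It stood at 85.1, 125 and 61.9 CPM in MI+RDN, against 52.5, 55.2 and 48.7 CPM in MI. The MI libraries were tight and the MI+RDN libraries spread wide, at 90.5 ± 31.7 CPM against 52.1 ± 3.25 CPM in MI (SD, n = 3 each). The log2 fold change was 0.80 (standard error 0.23; edgeR, Benjamini-Hochberg adjusted p = 0.116), and without MI+RDN replicate 2 it was 0.48. Ptafr (ENSMUSG00000056529), the receptor for platelet-activating factor, stood at 277, 156 and 224 CPM in MI+RDN, against 202, 206 and 186 CPM in MI. MI+RDN replicate 1 was the highest library and MI+RDN replicate 2 the lowest, so the groups overlapped, with a log2 fold change of 0.14 (standard error 0.19; edgeR, Benjamini-Hochberg adjusted p = 0.707). The log2 ratio of Ltb4r1 to Ptafr was -1.70, -0.32 and -1.85 in MI+RDN, against -1.94, -1.90 and -1.93 in MI (two-sided exact permutation p = 0.10, the smallest this design allows, adjusted p = 0.267), with MI+RDN replicate 2 far from the other 5 libraries.

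Gpr84 (ENSMUSG00000063234) responds to medium-chain fatty acids and is induced by inflammatory stimuli in phagocytes. It was low, with 8.51, 13.7 and 6.28 CPM in MI+RDN, against 5.24, 3.16 and 3.62 CPM in MI. These levels rest on 221, 374 and 146 counts in MI+RDN, against 123, 70 and 97 counts in MI. The groups did not overlap, and the log2 fold change of 1.24 (standard error 0.32) was exceeded among the receptors only by that of Gpr27, yet it missed the threshold (adjusted p = 0.0983 by edgeR).

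Ffar2 (ENSMUSG00000051314), a receptor for short-chain fatty acids such as acetate, stood at 17.5, 30.1 and 18.1 CPM in MI+RDN, against 25.4, 24.5 and 31.8 CPM in MI. MI+RDN replicates 1 and 3 lay below all MI libraries and MI+RDN replicate 2 among them. The log2 fold change of -0.31 (standard error 0.22) missed the threshold (adjusted p = 0.470 by edgeR), and without MI+RDN replicate 2 it was -0.63 (adjusted p = 0.0910 by edgeR). Smaller values came from leaving out MI+RDN replicate 1 (-0.17), MI+RDN replicate 3 (-0.21) or MI replicate 3 (-0.19). Hcar2 (ENSMUSG00000045502), the receptor for niacin and the ketone body beta-hydroxybutyrate, stood at 141, 197 and 104 CPM in MI+RDN, against 124, 150.5 and 61.8 CPM in MI. The groups overlapped and both spread widely, at 148 ± 46.8 CPM against 112 ± 45.5 CPM in MI (SD, n = 3 each), with a log2 fold change of 0.40 (standard error 0.33; edgeR, Benjamini-Hochberg adjusted p = 0.543). That value was 0.11 when MI+RDN replicate 2 was left out, 0.10 when MI replicate 3 was, and 0.67 when MI replicate 2 was.

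Gpr27 (ENSMUSG00000072875) is an orphan receptor of the SREB family, best known from the brain. It stood at 6.31, 7.23 and 3.48 CPM in MI+RDN, against 1.45, 0.947 and 1.27 CPM in MI, from 164, 198 and 81 counts in MI+RDN and 34, 21 and 34 counts in MI. Even the lowest MI+RDN library was well above the highest MI library. Gpr27 rose 4.63-fold, to 5.68 ± 1.96 CPM in MI+RDN against 1.22 ± 0.254 CPM in MI (SD, n = 3 each), a log2 fold change of 2.21 with a standard error of 0.33 (edgeR, Benjamini-Hochberg adjusted p = 0.0401). The call was kept without MI+RDN replicate 3 (adjusted p = 0.0327 by edgeR) and lost without any 1 of the other 5 libraries (0.0609 to 0.136), while the log2 fold change stayed between 1.98 and 2.45. It was also lost without a filter and with limma-voom (adjusted p = 0.0793 by edgeR and 0.0547 by limma). Its relatives of the SREB family were near absent, with Gpr85 at 0.524 CPM in MI+RDN and 0.588 CPM in MI and Gpr173 at 0 counts in all 6 libraries.

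**Figure D2:**
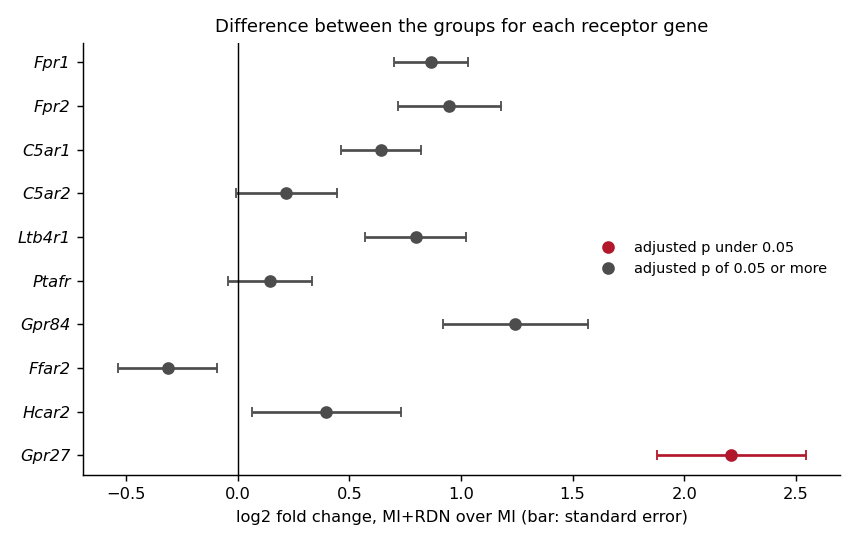
Log2 fold change of MI+RDN over MI for each receptor (points), with its standard error (bars) on the x axis. Only Gpr27, at 2.21, has an adjusted p under 0.05, and Ffar2, at -0.31, is the only point left of 0.

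Levels were compared between genes as CPM per kilobase of annotated exon (GENCODE vM21, GRCm38). In MI+RDN the order was C5ar1 (181 ± 31.8), Fpr2 (176 ± 44.8), Fpr1 (114 ± 9.09), Hcar2 (76.5 ± 24.2), Ltb4r1 (64.9 ± 22.7), Ptafr (60.1 ± 16.7), C5ar2 (28.4 ± 8.90), Ffar2 (7.84 ± 2.56), Gpr84 (5.50 ± 2.20) and Gpr27 (2.38 ± 0.819), all in CPM per kilobase (SD, n = 3). The ranges of the libraries overlapped between C5ar1 and Fpr2, between Hcar2 and Ltb4r1, between Ltb4r1 and Ptafr and between Ffar2 and Gpr84. Within every MI+RDN library, however, Hcar2 stood above Ltb4r1 and Ffar2 above Gpr84. The order of C5ar1 and Fpr2, and that of Ltb4r1 and Ptafr, changed between libraries. In MI the order differed only in that Ptafr (54.4 ± 2.95 CPM per kilobase) stood above Ltb4r1 (37.4 ± 2.33 CPM per kilobase), and these did not overlap. Neighbours from C5ar1 down to Ptafr overlapped in MI, and those from Ptafr down to Gpr27 did not.

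MI+RDN replicate 2 was the highest of the 6 libraries for Fpr2, Ltb4r1, Gpr84, Hcar2 and Gpr27, and the lowest of the 6 for C5ar2 and Ptafr. MI replicate 3 was the lowest library for Fpr1, Fpr2, C5ar1, Ltb4r1 and Hcar2, and the highest for Ffar2. Without MI+RDN replicate 2, 8 receptors had an unadjusted p under 0.05 as higher and 1 (Ffar2) as lower, where 10.5% of all genes tested did so as higher and 10.9% as lower, and none of the 10 passed after adjustment in that smaller fit. Each of the other 5 fits with 1 library left out gave 6 receptors an unadjusted p under 0.05, as did the fit of all 6 libraries. Likeness between profiles was measured as the root mean square difference of log2 CPM, each gene centred on its own mean over the 6 libraries. The measure is not scaled, so it tends to be larger for genes with a wide range over the libraries. That range was widest for Gpr27 (2.83) and narrowest for Ptafr (0.83), with C5ar2 at 0.95. Of the 45 pairs of receptors, C5ar2 and Ptafr were most alike (0.099), followed by Fpr1 and Fpr2 (0.21) and by Fpr2 and Ltb4r1 (0.24), while Ffar2 and Gpr27 were least alike (1.26).

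**Figure D3:**
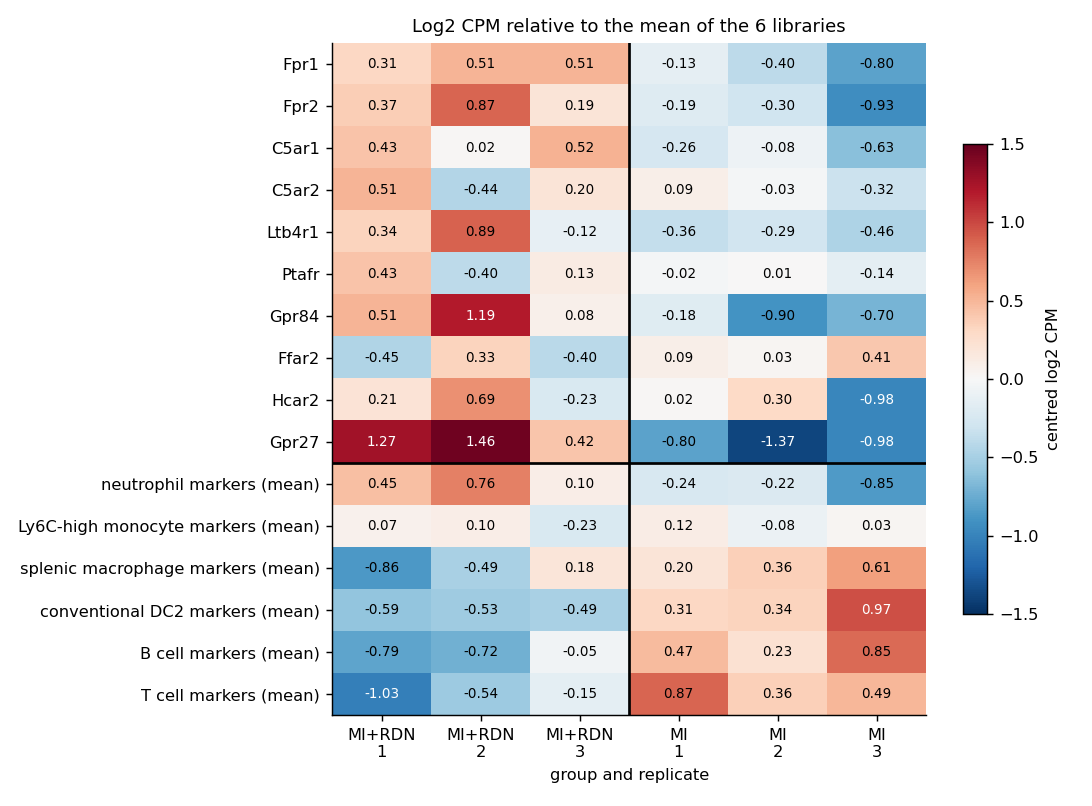
Log2 CPM of each receptor (upper 10 rows) and mean log2 CPM of 6 cell type marker lists (lower rows), each relative to its mean over the 6 libraries, with colour and printed values on the same scale. C5ar2 and Ptafr share a row pattern with MI+RDN replicate 2 low (-0.44 and -0.40), whereas Fpr2 and Ltb4r1 are high there (0.87 and 0.89), as is the neutrophil marker mean (0.76).

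Among the other 11153 genes compared by the same measure over 6 libraries, the 3 most like Fpr1 were Klhdc4 (0.084), Cfb (0.088) and Tarm1 (0.11). Those most like Fpr2 were Klf5 (0.046), Cdk5r1 (0.082) and Mmp8 (0.085), the neutrophil collagenase. For C5ar1 they were Igfbp6 (0.046), Sema4a (0.056) and Slfn1 (0.061), and for C5ar2 they were Letm2 (0.065), Gcnt2 (0.067) and Ddx6 (0.074). For Ltb4r1 they were Ano10 (0.040), Mettl9 (0.083) and St3gal5 (0.085), and for Ptafr they were Il1b (0.044), which encodes interleukin-1 beta, Cd300lb (0.051) and Arrdc4 (0.063). The metabolite receptors had Reck (0.18), Cdh1 (0.20) and Ckap4 (0.21) for Gpr84, Bcl2l2 (0.060), Dimt1 (0.062) and Alg13 (0.066) for Ffar2, and Olr1 (0.13), Gadd45g (0.14) and Ceacam2 (0.14) for Hcar2. No gene came as close to Gpr27, the receptor with the widest range, whose nearest were Krt83 (0.32), Ggt1 (0.40) and Stfa1 (0.40). Ggt1 and Stfa1 passed the threshold themselves (edgeR, Benjamini-Hochberg adjusted p = 0.0172 and 0.0114), and Krt83 did not (0.0542). All 3 were picked for their likeness to Gpr27 over the same libraries, so these values are no separate support for its rise.

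Neutrophil markers stood higher in MI+RDN beside the receptors. Their 15 listed genes summed to between 31060 and 53598 CPM in MI+RDN, against 16710 to 26397 CPM in MI. All 15 had positive fold changes, where 51.0% of all genes tested did, with a median of 1.01 on the log2 scale. Of the 15, 3 passed the threshold as higher (0.296% of all genes tested did), and none was at 0. Ly6g, the defining surface marker of mouse neutrophils, stood at 107, 171 and 103 CPM in MI+RDN, against 50.1, 49.0 and 31.5 CPM in MI. The 10 Ly6C-high monocyte markers summed to between 6620 and 9740 CPM in MI+RDN, against 8043 to 9509 CPM in MI. Their median log2 fold change was -0.12, and 1 of 10 (Ly6c2) passed the threshold, as higher. Itgam, which encodes CD11b, was between 1489 and 1666 CPM in MI+RDN, against 1011 to 1301 CPM in MI. Markers of lymphocytes, most of which lack CD11b, were present. The 10 B cell markers summed to between 271 and 436 CPM in MI+RDN, against 523 to 803 CPM in MI, and the 10 T cell markers to between 32.4 and 54.2 CPM, against 74.6 to 102 CPM in MI. None of the B or T cell markers was at 0, and 1 T cell marker passed the threshold as lower, as did 0.714% of all genes tested. The median log2 fold change was -0.73 over the 10 splenic macrophage markers, of which 9 were negative. All 8 tested conventional DC2 markers were negative, with 4 of them (Cd209a, Clec10a, Zbtb46 and Cd4) past the threshold as lower. The 8 erythroid markers summed to between 174 and 246 CPM in MI+RDN, against 389 to 779 CPM in MI, and 5 of them were lower at an unadjusted p under 0.05, as were 10.1% of all genes tested. The 6 plasmacytoid DC markers summed to between 61.1 and 71.5 CPM in MI+RDN, against 78.2 to 82.8 CPM in MI, and all 4 of those tested were lower at an unadjusted p under 0.05. Most of these sums came from Tcf4 alone, at 58.1 to 68.0 CPM in MI+RDN, against 72.8 to 77.2 CPM in MI. Sums for NK cells, eosinophils and basophils, platelets and Ly6C-low monocytes overlapped between the groups. The part of the B cell, T cell, macrophage, dendritic cell and erythroid lists in the receptor values was not tested.

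Set against the mean log2 CPM of the 15 neutrophil markers in the same library, the formyl peptide receptors had overlapping groups and small differences. Fpr1 differed by 0.014 and Fpr2 by 0.079 on the log2 scale, MI+RDN minus MI (two-sided exact permutation p = 0.90 and 0.20). Fpr2 lay within a narrow band, at -2.87, -2.68 and -2.71 in MI+RDN, against -2.75, -2.88 and -2.88 in MI. C5ar1 (-0.23), Ltb4r1 (-0.13), Gpr84 (0.31) and Hcar2 (-0.43) also had overlapping groups (exact permutation p = 0.70, 0.60, 0.50 and 0.20). C5ar2 (-0.70), Ptafr (-0.77) and Ffar2 (-1.22) were lower relative to these markers in every MI+RDN library than in any MI library. Without MI+RDN replicate 2 the differences of C5ar2 and Ptafr were -0.27 and -0.38, and without MI replicate 2 that of Gpr84 was 0.052. Only Gpr27 was higher relative to them in every MI+RDN library, at -7.89, -8.01 and -8.39, against -9.27, -9.87 and -8.84 in MI, a difference of 1.23. These last 4 had an exact permutation p of 0.10, the smallest that 3 libraries against 3 can give, and an adjusted p of 0.25 over the 10 receptors. The difference of Gpr27 was 1.60 with Itgam as the marker and 2.14 with the Ly6C-high monocyte markers. C5ar1, Ltb4r1 and Hcar2 were negative against the neutrophil markers but 0.69, 0.78 and 0.48 against the monocyte markers. C5ar2 and Ptafr turned likewise, to 0.22 and 0.15. Against Itgam C5ar2 and Ptafr differed by -0.33 and -0.40, with overlapping groups. Ffar2 stayed negative, at -0.85 against Itgam without overlap and -0.31 against the monocyte markers with overlap. The neutrophil list mixes stages, since the granule gene Ltf, chosen here after its values were seen, stood at 3490, 7975 and 1105 CPM in MI+RDN replicates 1 to 3, whereas Csf3r, a receptor gene of the same list, stood at 7667, 4362 and 7781 CPM.

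**Figure D4:**
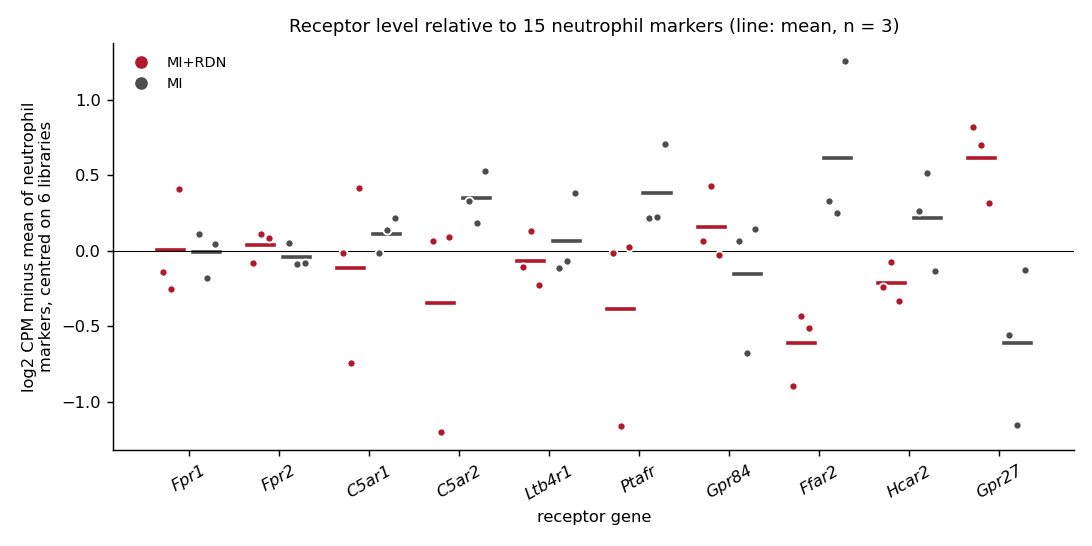
Log2 CPM of each receptor minus the mean log2 CPM of 15 neutrophil markers in the same library (y axis), centred on the mean of the 6 libraries, with points for libraries and lines for group means. Gpr27 lies higher in all MI+RDN libraries, C5ar2, Ptafr and Ffar2 lie lower in all of them, and the other 6 genes overlap.

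Related receptors outside the 10 had a median fold change slightly below 0. Of 40 listed, 39 were in the table, 7 had 0 counts throughout, and 29 were tested. None rose and 1 fell, where 0.714% of all genes tested passed as lower, with a median of -0.13 on the log2 scale and 13 positive against 16 negative values. At an unadjusted p under 0.05, 2 were higher and 9 lower, where 10.1% of all genes tested were lower in this way. The receptor that fell was Gpr34, which senses lysophosphatidylserine, with 4.12, 4.86 and 4.08 CPM in MI+RDN, against 10.6, 8.43 and 15.4 CPM in MI (log2 fold change -1.40, standard error 0.24, edgeR, Benjamini-Hochberg adjusted p = 0.0495). Its call sat at the threshold and was lost with DESeq2 size factors and in each fit that left out a library.

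Genes that make or clear the ligands had positive fold changes in 16 of 19 tested members, where 51.0% of all genes tested did, and their median was 0.49 on the log2 scale. None passed by edgeR, while 6 were higher at an unadjusted p under 0.05 (9.83% of all genes tested) and 3 were higher by the DESeq2 Wald test (3.62% of all genes tested). Alox5ap, which encodes the activating protein of leukotriene synthesis, averaged 1074 ± 62.5 CPM in MI+RDN and 763 ± 54.4 CPM in MI (SD, n = 3 each), without overlap (edgeR, Benjamini-Hochberg adjusted p = 0.0746). Anxa1, a ligand of formyl peptide receptors, averaged 1450 ± 464 CPM in MI+RDN and 714 ± 130 CPM in MI, without overlap (edgeR, Benjamini-Hochberg adjusted p = 0.0810). Of the 41 genes of Gi signalling, arrestins and chemotaxis, all tested, 31 had positive fold changes, the median was 0.17 and none passed by edgeR. There 11 were higher and 2 lower at an unadjusted p under 0.05, where 9.83% and 10.1% of all genes tested were. By the DESeq2 Wald test 5 were higher and 1 lower, where 3.62% and 3.93% of all genes tested were. Arrb2, the beta-arrestin that quenches chemoattractant receptors, averaged 624 ± 75.5 CPM in MI+RDN and 411 ± 60.6 CPM in MI (log2 fold change 0.60, edgeR, Benjamini-Hochberg adjusted p = 0.0819). Grk3, a kinase that phosphorylates active receptors, averaged 238 ± 20.9 CPM in MI+RDN and 348 ± 24.1 CPM in MI (log2 fold change -0.55, edgeR, Benjamini-Hochberg adjusted p = 0.0548).

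The DESeq2 Wald test, with its own size factors and estimate of spread, called 6 of the 10 receptors as higher, where it called 3.62% of all genes tested as higher. They were Fpr1, Fpr2, C5ar1, Ltb4r1, Gpr84 and Gpr27, with Benjamini-Hochberg adjusted p between 6.74e-07 and 0.00979. These are the receptors whose groups did not overlap. By limma-voom 0 receptors passed and 6 had an unadjusted p under 0.05, and the adjusted p of Gpr27 and Fpr1 was 0.0547 and 0.0549. The number called was therefore 0, 1 or 6 of the 10 by limma-voom, edgeR and DESeq2 in that order, and no fold change differed in direction between these tools.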

How the data were processed

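Per the labels' protocols, RNA from a column kit was made into strand-specific TruSeq libraries and sequenced on a NovaSeq. FastQC 0.11.2, STAR and the build GRCm39 are named in the submitters' processing notes. Not given in the sources used here are the read counter, its strand setting and the annotation release. Deposited by the authors was 1 table of raw counts per Ensembl gene, with no normalisation. Totals ran from 21663440 to 28013900 counts per library, with a biological coefficient of variation of 20.7% (edgeR's common estimate). Symbols and exon lengths were matched by gene ID to GENCODE vM21 (GRCm38), and 55154 IDs had a symbol. Coordinates are given only for promoters, from RefSeq in GRCm38.p6.

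The counts were fitted in R 4.3.3 with edgeR 4.0.16 (filterByExpr, TMM factors, glmQLFit and glmQLFTest, no covariates, all 6 libraries). P-values were adjusted over all 14849 genes tested. CPM use TMM-adjusted library sizes, log2 CPM a prior count of 2, and the standard error was the size of the log2 fold change divided by the root of the F statistic. The fit was checked on simulated counts. DESeq2 1.42.0 and limma 3.58.1 (voom) were alternatives, with other factors and filters, a replicate block and each library left out. Figures used matplotlib 3.10.9.

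The receptors, lists and tests were chosen with earlier results of these data known. Named genes are all receptors, passing members of each pathway list (or the 2 with the lowest p), and the 3 genes most like each receptor with at least 1 CPM, leaving out predicted genes, pseudogenes and antigen receptor segments. Fpr3, the Fpr-rs genes, Gpr85, Gpr173, Ly6g, Itgam, Ltf, Csf3r and Tcf4 are named outside this rule, after their values were seen. So are Ly6c2, Cd209a, Clec10a, Zbtb46 and Cd4, while Gm26473 and Gm49482 are named for their overlap only. Of the listed genes, all 10 receptors, 101 of 102 pathway genes and 107 of 107 markers were in the table.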

Additional observations from a re-analysis of the deposited data

How the results depend on the processing

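Of 14849 genes tested, 150 passed by edgeR with TMM factors, 44 higher and 106 lower in MI+RDN. The count was 475 without scaling factors (62 higher, 413 lower, with the median of all genes at -0.13 on the log2 scale), 21 without a filter, 290 at a mean of at least 5 CPM, 1121 with the DESeq2 Wald test, 277 without antigen receptor, haemoglobin and mitochondrial genes, and 0 to 67 with 1 library left out. Leaving out MI+RDN replicate 1 or MI replicate 3 gave 0, and edgeR there gave 2323 and 2084 genes an unadjusted p under 0.05. Receptors past the threshold numbered 1, with 2 without scaling factors and 2 without the genes just named, 0 without a filter and with limma-voom, 6 with the DESeq2 Wald test, and 0 to 1 with 1 library left out. At a mean of at least 5 CPM the count was 1 but the gene was Fpr1, since Gpr27 was below that filter. Related receptors numbered 1, with 4 without scaling factors, 5 with the DESeq2 Wald test, 2 at a mean of at least 5 CPM, 2 without the named genes, and 0 with DESeq2 size factors, without a filter, with limma-voom and with any 1 library left out. Ligand genes numbered 0, with 3 by the DESeq2 Wald test. Signalling genes numbered 0, with 1 without scaling factors, 1 at a mean of at least 5 CPM, 1 without the named genes and 6 by the DESeq2 Wald test. With the cause not tested in any of these, the receptors' own fold changes kept their direction except those of C5ar2 and Ptafr, which were -0.0051 and -0.057 without MI+RDN replicate 1, with ranges of -0.0051 to 0.42 and -0.057 to 0.32 over the 6 fits with 1 library left out.

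The replicate numbers shared by the groups showed no clear pairing of the libraries, although 3 libraries per group cannot exclude it. Correlations of deviations from the group means over genes were 0.018, -0.065 and 0.064 for numbers 1, 2 and 3, and not every library correlated best with its own number. With the replicate number as a block, 87 genes passed, 0 receptors (Gpr27 at an adjusted p of 0.0626 by edgeR) and 0 related receptors. At an unadjusted p under 0.05 by edgeR the block gave 7 receptors and 2548 genes, against 6 and 2959 without it.

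Against neutrophil markers, leaving out 1 library gave -0.19 to 0.14 for Fpr1, 0.043 to 0.14 for Fpr2, -0.49 to 0.086 for C5ar1, -0.92 to -0.27 for C5ar2, -0.23 to 0.024 for Ltb4r1, -0.97 to -0.38 for Ptafr, 0.052 to 0.46 for Gpr84 and -0.60 to -0.28 for Hcar2. Against Itgam, C5ar1 turned to 0.14 and Ltb4r1 to 0.24. Against the Ly6C-high monocyte markers, C5ar1 turned to 0.69, C5ar2 to 0.22, Ltb4r1 to 0.78, Ptafr to 0.15 and Hcar2 to 0.48. The directions of Fpr2, Gpr84, Ffar2 and Gpr27 did not turn in these. Of the receptors Gpr27 had the fewest counts, with 21 to 34 per MI library.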
